A study of Mus musculus with 3 samples.

Results

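Ccl6, Ccl9, Ccl24, Ccl17 and Ccl22 are 5 CC chemokines, small secreted proteins that steer leukocytes, and Ccr7 is a chemokine receptor on leukocytes that travel towards lymphoid tissue. These 6 of the 50262 genes in the deposited table were taken as a list of names, with earlier results of these data known and no threshold on a value. Single-cell RNA sequencing (inDrop, with unique molecular identifiers, UMIs, each standing for 1 captured transcript) was done on brains of mice with de novo glioblastoma. The mice carried a conditional human EGFR transgene, Cdkn2a-/- and a conditional luciferase reporter, among other alleles, on a mixed background, and tumors began after a Cre lentivirus was injected into the brain. All groups share these alleles. Cells were sorted into viable CD45+ (leukocyte) and CD45- populations at 3 tumor stages, early, medium and large (called late here), with 1 tumor sample per stage. Per the study's methods, each early sample was combined from more than 1 mouse or tumor, since few cells were available. Each of the 3 GEO samples is a multiplexed run, and each cell was given its stage and sort through the library annotation deposited with the counts.

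CC chemokines are made mainly by myeloid cells and bind receptors that couple to G proteins. Ccl6 and Ccl9 are rodent chemokines that act through Ccr1 and draw monocytes, neutrophils and dendritic cells. Ccl24 (eotaxin-2) acts through Ccr3 and is known from macrophages exposed to type 2 cytokines. Ccl17 and Ccl22 share the receptor Ccr4, found on regulatory and type 2 T cells, and dendritic cells are their best known source. Ccr7 binds Ccl19 and Ccl21, and takes maturing dendritic cells and naive T cells to lymph nodes.

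After filtering, 11168 CD45+ cells and 6596 CD45- cells were kept. CD45+ cells numbered 5091 at the early, 3983 at the medium and 2094 at the late stage, with 10808099, 9729273 and 5319519 UMIs in all and medians of 1964 to 2094 UMIs per cell. They came from 4, 4 and 3 libraries. The libraries of a stage come from its 1 tumor sample, so they are not replicates of the stage. The smallest late library held 91 cells, and the smallest early library 136. Of the CD45+ cells, 1064 (9.53%) carried a droplet barcode also found in another library of the same stage and sort, and 1160 (17.6%) of the CD45- cells did. The sort comparison, the stage ratios of the CD45+ sums and the levels in the leading classes were recomputed without them. With 1 tumor sample per stage, no test between stages was possible, and the 95% Poisson and exact binomial (Clopper-Pearson) intervals cover counting error only.

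The genes lie in 4 places of the GRCm38 genome (GENCODE M21). Ccl6 (ENSMUSG00000018927, chr11:83587882-83593087, minus strand) and Ccl9 (ENSMUSG00000019122, chr11:83572919-83578636, minus strand) are neighbours with 9245 bases between them. Ccl22 (ENSMUSG00000031779, chr8:94745590-94751699, plus strand) and Ccl17 (ENSMUSG00000031780, chr8:94810453-94812036, plus strand) lie 58753 bases apart. Ccl24 (ENSMUSG00000004814, chr5:135569937-135573049, minus strand) and Ccr7 (ENSMUSG00000037944, chr11:99144196-99155077, minus strand) stand apart from these pairs. Every member is protein coding.

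The RefSeq promoter table (GRCm38.p6, 250 bases before to 50 bases after the start) held 4 of the 6 genes. The 250 bases before the start are shown for Ccl6 and Ccl9, the neighbours whose levels followed each other most closely across classes (below), and for Ccl17, the member whose window held STAT matches. Capitals in Ccl6 and Ccl9 mark the longest run of letters they share, 13 bases that begin at position -55 of Ccl6 and -14 of Ccl9 from the transcription start. Capitals in Ccl17 mark TTCNNNNGAA, the spacing known for STAT6, at -154 and TTCNNNGAA, the general STAT spacing, at -99.
Ccl6 (chr11:83593088-83593337, minus strand): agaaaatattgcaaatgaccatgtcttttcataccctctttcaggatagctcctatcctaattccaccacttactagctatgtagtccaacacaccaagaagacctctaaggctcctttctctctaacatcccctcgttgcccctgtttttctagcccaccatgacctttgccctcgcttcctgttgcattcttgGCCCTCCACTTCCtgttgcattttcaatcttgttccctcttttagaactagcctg
Ccl9 (chr11:83578637-83578886, minus strand): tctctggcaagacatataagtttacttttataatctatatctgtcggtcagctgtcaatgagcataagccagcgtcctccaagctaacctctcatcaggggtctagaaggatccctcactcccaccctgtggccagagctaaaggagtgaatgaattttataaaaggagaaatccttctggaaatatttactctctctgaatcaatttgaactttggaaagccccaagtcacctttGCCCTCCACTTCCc
Ccl17 (chr8:94810203-94810452, plus strand): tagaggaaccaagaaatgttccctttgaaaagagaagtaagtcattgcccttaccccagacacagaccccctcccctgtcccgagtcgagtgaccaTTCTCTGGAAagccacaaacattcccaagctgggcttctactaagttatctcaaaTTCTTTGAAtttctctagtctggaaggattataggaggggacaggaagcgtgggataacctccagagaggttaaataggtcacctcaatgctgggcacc

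With the 300-base windows aligned and gaps left out, Ccl6 and Ccl9 were identical at 170 of 239 aligned bases (71.1%). The other 5 pairs were identical at 56.1% to 66.2% of 258 to 270 aligned bases. By number of identical bases Ccl17 and Ccl22, with 172, were not below Ccl6 and Ccl9. TTCNNNNGAA was found in 6.95% and TTCNNNGAA in 8.30% of the 32851 promoters of the same length, on either strand. Neither was in the window of Ccl22, Ccl6 or Ccl9. The Ccl9 window held the AP-1 motif TGANTCA (in 7.81% of promoters) at -53 and the NF-kappaB motif (8.46%) at -35. It also held the TATA box letters (TATAAA, 13.6%), at -92 on the strand shown and at -224 and -94 on the opposite strand. The matches at -94 and -92 overlap, in the stretch TTTATAAA, and are not separate boxes. No other of the 4 windows held these 3 motifs. The RefSeq start of Ccl22 differs from its GENCODE start, so its window lies partly inside the GENCODE gene. A match is a description of letters and not of a bound site.

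Does the CD45+ compartment hold these transcripts? All 6 genes were higher in CD45+ cells. Ccl6 stood at 100 UMIs per 1000000 UMIs summed (counts per 1000000, CPM) in the CD45+ cells of the early, 118 of the medium and 232 of the late sample, against 6.67, 3.81 and 0.850 in CD45- cells. Ccl9 stood at 43.7, 49.7 and 63.7 in CD45+ and at 8.89, 2.90 and 3.59 in CD45- cells. The 2 sorts did not overlap for either gene, and the gap was narrower for Ccl9. By the classes named below, 58 of the 88 CD45- Ccl6 UMIs lay in microglia and 18 in MHC class II macrophages. Of the 129 CD45- Ccl9 UMIs, 24 lay in microglia and 73 in choroid plexus epithelium.

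Ccl24 was found at 19.99, 6.06 and 41.5 CPM in CD45+ cells and at 0.494, 0 and 0 in CD45- cells. Ccl17 was found at 5.18, 7.40 and 28.4 in CD45+ and at 0, 0.762 and 0.472 in CD45- cells. A sample at 0 allows up to 0.457 (Ccl24, medium), 0.283 (Ccl24, late) and 0.370 (Ccl17, early), which are 3 UMIs of its total. Neither gene overlapped between the sorts. All 4 CD45- Ccl24 UMIs lay in microglia.

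Ccl22 reached 25.5, 35.8 and 8.27 CPM in CD45+ cells and 3.46, 1.83 and 1.13 in CD45- cells. Of its 52 CD45- UMIs, 19 lay in microglia, 18 in oligodendrocytes and 15 in the glioma or oligodendrocyte progenitor class. Ccr7 reached 17.6, 73.2 and 17.1 against 0.370, 0 and 0.283. The late CD45+ level of Ccl22 was the lowest of its 3 and still above every CD45- level. The share of all genes that separate the sorts without overlap is not given here, so how common this is cannot be judged.

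**Figure D1:**
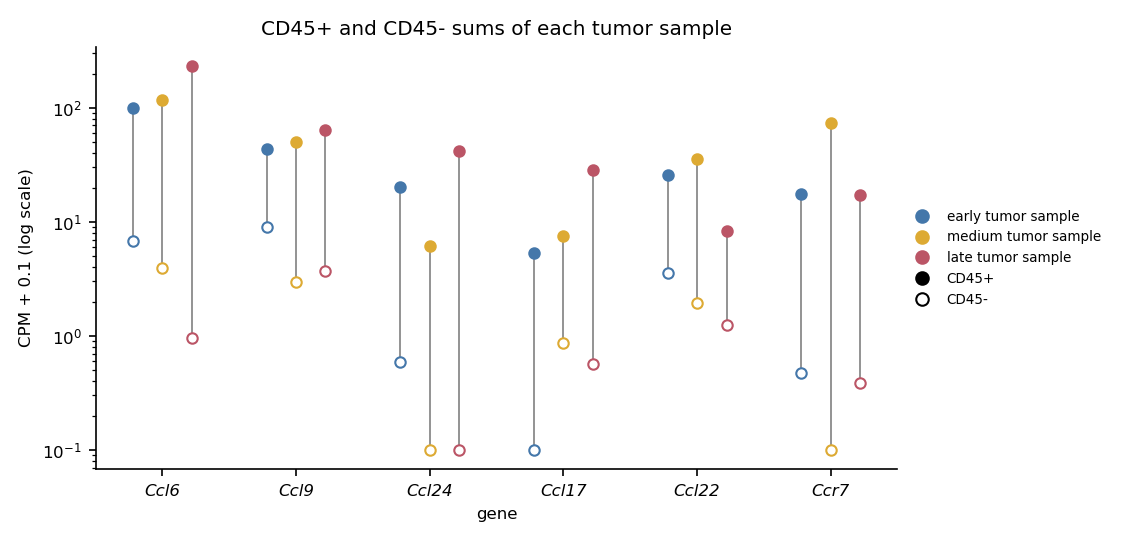
Summed level of each gene in CD45+ (filled) and CD45- cells (open) of each tumor sample, in CPM plus 0.1 on a log axis, with a line joining the 2 sorts of 1 sample. Every filled point lies above every open point of its gene, a separation whose share over all genes is not given. Points at 0.1 are sums of 0 UMIs.

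In edgeR's quasi-likelihood test of CD45+ against CD45- sums, paired by tumor sample (3 pairs), the log2 fold change was 5.75 for Ccl6 (SE 0.760, adjusted p = 0.00107) and 3.81 for Ccl9 (SE 0.434, adjusted p = 0.000582). It was 7.39 for Ccl24 (SE 0.771, adjusted p = 0.000422), 5.39 for Ccl17 (SE 0.639, adjusted p = 0.000589) and 3.68 for Ccl22 (SE 0.381, adjusted p = 0.000339). Ccr7 gave 7.21 (SE 0.653, adjusted p = 0.000263). All 6 of 6 were called higher at an adjusted p under 0.05, where 20.2% of the 19565 genes tested were called higher and 25.7% lower. The median log2 fold change of all genes tested was -0.05. Ccl6 lost its call when the medium pair was left out (log2 fold change 5.98, adjusted p = 0.0682) and when every gene with at least 1 count was tested (adjusted p = 0.0626). Without the shared barcodes all 6 stayed called, with adjusted p from edgeR of 0.000157 to 0.000895. The cell sort itself uses CD45, so leukocyte genes lie on its CD45+ side by construction.

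Of the receptors of these chemokines, Ccr1, which binds Ccl6 and Ccl9, was higher in CD45+ cells (log2 fold change 5.04, adjusted p = 0.00208 in edgeR), and so was Ccr4, the receptor of Ccl17 and Ccl22 (2.81, adjusted p = 0.0107). Ccr3, the Ccl24 receptor, had 28 UMIs in CD45+ and 5 in CD45- cells. The scavenger receptor Ackr2 had 0 and 27. Ccr3 and Ackr2 fell under the count filter, so 2 of the 4 receptors were tested. The ligands of Ccr7 were near absent: Ccl19 had 10 UMIs in CD45+ and 11 in CD45- cells, Ccl21a had 0 and 4 (it has near-identical copies, so its count is uncertain), and the scavenger Ackr4 had 10 and 19. None of these 3 was tested.

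Among 13 other CC chemokines, 11 were tested. Of these, 8 were higher in CD45+ cells, Ccl25 was lower and Ccl27a and Ccl28 did not pass the test. All 5 tested of 7 other CC chemokine receptors were higher. Of 15 genes linked to dendritic cell maturation, 14 were tested. Among them 10 were higher, Cacnb3 and Cd200 were lower, and Fscn1 and Socs2 did not pass. All 8 type 2 cytokine targets of macrophages were higher. Of 7 regulatory T cell genes, 6 were tested and 5 were higher, with Ikzf2 not passing. The median log2 fold changes of these 5 lists were 4.99, 4.19, 2.29, 6.20 and 3.22.

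Which of the genes differed between stages? Within CD45+ cells, levels were compared as ratios of summed CPM. In bulk sums of this kind, fewer cells of a type and less RNA per cell cannot be told apart. Late over early, 3 of 6 genes (Ccl6, Ccl24, Ccl17) were at least 2-fold higher, where 9.18% of 19092 genes were, and 1 (Ccl22) was at least 2-fold lower, where 5.34% were. Medium over early, 1 (Ccr7) was at least 2-fold higher, where 12.6% of 19929 genes were, and 1 (Ccl24) at least 2-fold lower, where 11.4% were. Below, libraries of some stages lie apart from those of others. The share of all genes that do so is not given here, so how common this is cannot be judged.

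Ccl6 was close between the early and medium stages and higher at the late stage. Its 4 early libraries held 164, 107, 98.4 and 85.4 CPM, its 4 medium libraries 103, 128, 125 and 105, and its 3 late libraries 594, 254 and 176. Every late library lay above every early and medium one, and the highest is the 91-cell library. The log2 ratio was 0.24 (95% interval 0.11 to 0.36) for medium over early and 1.21 (1.09 to 1.33) for late over early, which is 2.31-fold. Within single runs the late ratio was 1.24 in run 2 and 0.94 in run 3. The medium ratio was -0.68 in run 1, where the early library has 136 cells.

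Ccl9 differed less. Early libraries held 86.1, 36.9, 45.9 and 45.6 CPM, medium libraries 66.4, 43.2, 44.7 and 53.5, and late libraries 90.8, 67.5 and 57.6. The stages overlap, and in each stage the run 1 library was the highest. The log2 ratio was 0.19 (0.00 to 0.37) for medium and 0.55 (0.34 to 0.75) for late over early. Within run 2 the late ratio was 0.87 and within run 3 it was 0.34.

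Ccl24 was lowest at the medium stage in every library. Early libraries held 18.8, 16.1, 22.6 and 22.8 CPM, medium libraries 2.48, 9.06, 4.92 and 4.499, and late libraries 41.6, 40.4 and 42.5. No library of 1 stage overlapped with another stage, a separation whose share over all genes is not given. The log2 ratio was -1.71 (-2.16 to -1.30) for medium over early, and -2.85, -1.07 and -2.27 within runs 1, 2 and 3. For late over early it was 1.06 (0.78 to 1.33). At the late stage 109 of 221 UMIs came from 5 cells.

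Ccl17 had few UMIs: 56 early, 72 medium and 151 late. Early libraries held 10.8, 7.10, 0.696 and 5.996 CPM, medium libraries 2.48, 8.03, 6.88 and 10.3, and late libraries 11.4, 58.4 and 3.01. The late run 2 library alone stood apart. The late over early log2 ratio was 2.45 (2.00 to 2.92) with that library and -0.41 without it. Within run 2 it was 3.02 and within run 3 it was -0.18. Of the 151 late UMIs, 127 lay in 5 cells.

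Ccl22 was lower at the late stage in the larger libraries. Early libraries held 45.7, 19.2, 23.7 and 33.0 CPM, medium libraries 16.1, 54.9, 31.5 and 20.7, and late libraries 71.9, 5.84 and 4.14. The 2 larger late libraries lay below every early and medium library, while the 91-cell library was the highest of all. All 19 Ccl22 UMIs of that library lay in 1 cell, of the B cell class. The late over early log2 ratio was -1.61 (-2.12 to -1.16), or -2.34 without the 91-cell library and -1.02 without the late run 3 library. The medium over early ratio was 0.49 (0.25 to 0.72), but -0.14 without 1 of the 2 medium run 2 libraries, and -1.52, 1.28 and -0.46 within runs 1, 2 and 3.

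Ccr7 was highest at the medium stage. Early libraries held 18.8, 20.4, 15.7 and 15.6 CPM, medium libraries 55.3, 99.4, 55.5 and 56.7, and late libraries 3.78, 12.9 and 22.2. Each medium library lay above each early and late one. The medium over early log2 ratio was 2.05 (1.82 to 2.30), a fold of 4.15, and 1.46, 2.05 and 1.86 within runs 1, 2 and 3. The late over early ratio was -0.04 (-0.42 to 0.33). At the same medium stage, T cells made up 10.4% of CD45+ cells, against 6.19% early and 5.54% late. B cells made up 5.27%, against 0.275% and 0.716%, and dendritic cells 3.77%, against 1.37% and 2.20%. Mature dendritic cells made up 0.603%, against 0.0196% and 0.0478%, and held 303 of the 712 medium Ccr7 UMIs, more than T cells (121), other dendritic cells (115) or B cells (108). The part of these shares in the Ccr7 sum was not tested.

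**Figure D2:**
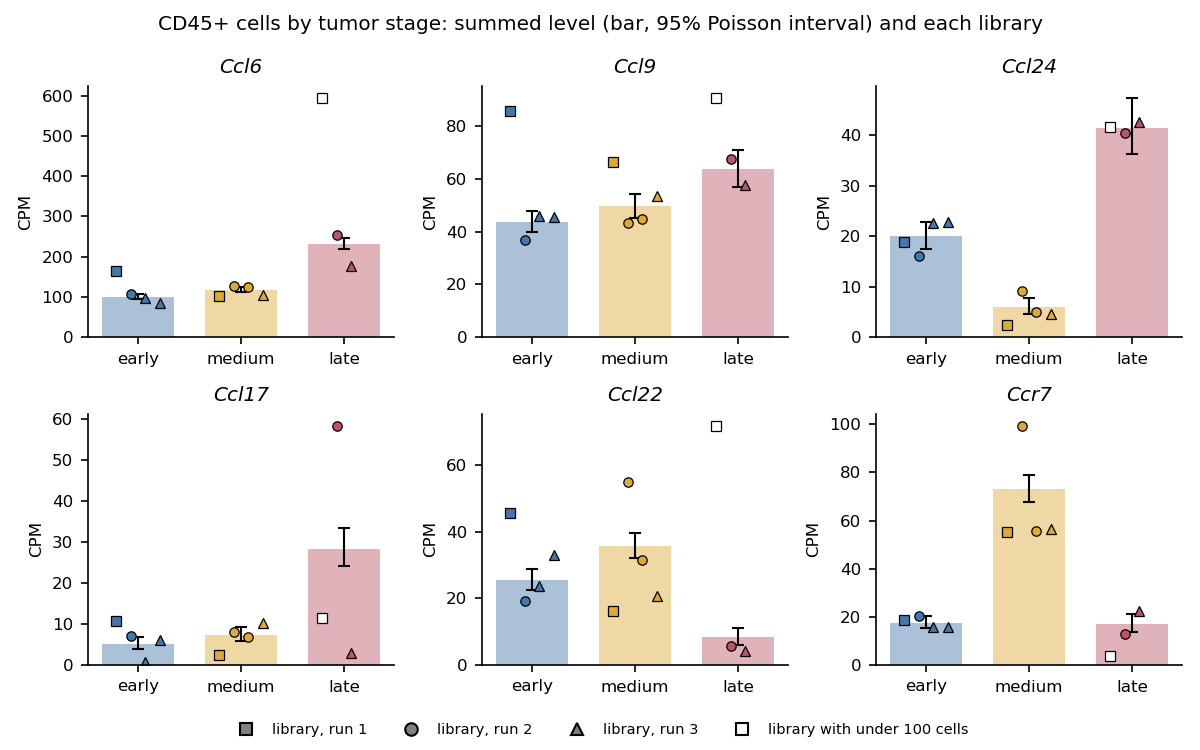
Summed CD45+ level of each gene by stage (bars, CPM, with 95% Poisson intervals) and the level of each library (squares run 1, circles run 2, triangles run 3, open square the 91-cell library). Late Ccl6 and medium Ccr7 libraries lie above those of the other stages, a separation whose share over all genes is not given. The late Ccl17 bar is raised by 1 library at 58.4.

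Cells were clustered and clusters named from fixed markers. The named classes held their markers: in Arg1/Spp1 macrophages (829 CD45+ cells) Arg1 stood at 450 CPM and Spp1 at 1620, against 16.1 and 58.4 in the other CD45+ cells, although Thbs1 was lower (39.3 against 88.9) and Vim close (336 against 299). Border or perivascular macrophages (407 cells) held Mrc1 at 2555 and Lyve1 at 368, neutrophils (331 cells) S100a8 at 67143, and dendritic cells (266 cells) Xcr1 at 385 and Flt3 at 193. A further cluster of 26 mature dendritic cells had Fscn1 at 8222 and Cacnb3 at 1089. Its marker list shares 7 genes with the maturation list above. The 6 genes were left out of the clustering, and class levels are given as descriptions.

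Ccl6 was spread over several myeloid classes. It reached 432 CPM (95% interval 406 to 458) in Arg1/Spp1 macrophages, 333 (292 to 378) in monocytes, 297 (264 to 332) in neutrophils and 262 (229 to 298) in border macrophages. Monocytes and neutrophils overlapped in their intervals, as did neutrophils and border macrophages. Dendritic cells followed at 140, MHC class II macrophages at 97.8 and microglia at 85.3. Arg1/Spp1 macrophages gave 31.1% of all CD45+ Ccl6 UMIs and the far more numerous microglia 28.5%. T cells, taken as a measure of background, stood at 43.0 with a Ccl6 UMI in 4.14% of cells (median 1880 UMIs), against 33.5% of Arg1/Spp1 macrophages (median 2636) and 10.7% of microglia (median 1894.5). No Ccl6 UMI was seen in the 26 mature dendritic cells. By stage, and among classes of 50 cells or more, neutrophils were highest at the early stage (685 against 448 in Arg1/Spp1 macrophages) and border macrophages at the late stage (569 against 429). The late intervals of these 2 classes overlapped (450 to 710 and 400 to 460). The late order was the reverse in the run 3 library (264 against 334).

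Ccl9, next to Ccl6 on the chromosome, was highest in monocytes over all stages. They held 314 CPM (275 to 358), border macrophages 152 (127 to 180), dendritic cells 123 (98.0 to 152) and Arg1/Spp1 macrophages 101.3 (89.2 to 115). Border macrophages and dendritic cells overlap, as do dendritic cells and Arg1/Spp1 macrophages. Neutrophils held only 12.7 (6.78 to 21.8), below the 16.7 of T cells. The ratio of Ccl6 to Ccl9 UMIs was 23.3 (13.4 to 44.3) in neutrophils, 4.26 (3.71 to 4.91) in Arg1/Spp1 macrophages, 2.83 in microglia, 1.73 (1.39 to 2.16) in border macrophages and 1.06 (0.878 to 1.28) in monocytes. In border macrophages the ratio was 1.26 (0.900 to 1.77) early and 3.25 (2.03 to 5.37) late, without overlap. In Arg1/Spp1 macrophages it was 2.72 (2.04 to 3.65) medium and 4.84 (4.09 to 5.76) late. In microglia it was 2.51 (2.17 to 2.90) early and 4.29 (3.05 to 6.15) medium. The values over all stages thus hide differences between the pooled counts of stages. Ratios by library are not given here, and the Ccl6 levels of border macrophage libraries overlap between stages (below). Neutrophils thus carried Ccl6 with hardly any Ccl9, while monocytes carried near equal UMI numbers.

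Over all stages Ccl24 lay mainly in border macrophages, at 338 CPM (300 to 379) and 58.9% of its CD45+ UMIs. Monocytes followed at 111 (87.8 to 138), where 5 cells gave 78.5% of the UMIs, and 35 of these UMIs lay in 1 late cell. Without the late run 2 library monocytes stood at 49.5. By stage the order differed. Border macrophages held 174 of the 216 early Ccl24 UMIs but 82 of the 221 late ones. At the late stage monocytes held 69 and Arg1/Spp1 macrophages 46. Monocytes held 0 UMIs in 65 early and 10 in 207 medium cells. The 33 late monocytes stood at 820 CPM (638 to 1038), against 598 (476 to 742) in late border macrophages, with overlapping intervals. Of the 69 late monocyte UMIs, 59 lay in 5 cells. Over all stages Arg1/Spp1 macrophages stood at 18.8 (13.8 to 25.03), with 47 UMIs in 14 of 829 cells. Microglia stood at 4.67, MHC class II macrophages at 0.724 and T cells at 1.61. Border macrophages had a Ccl24 UMI in 20.4% of cells, against 0.752% of microglia.

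Ccl17 and Ccl22 were highest in dendritic cells. Ccl17 reached 492 CPM (327 to 711) in mature dendritic cells and 281 (243 to 324) in the other dendritic cells. The 281 rests on the late run 2 library, which gave 119 of the 195 UMIs, and it was 123 without it. The dendritic class held 69.9% of all Ccl17 UMIs, and no Ccl17 UMI was found in T cells or neutrophils. Ccl22 reached 2266 (1892 to 2693) in mature dendritic cells and 127 (102 to 156) in the other dendritic cells. Without the larger medium run 2 library the mature cells stood at 955. Microglia stood at 24.7 (21.9 to 27.8), but because of their number they gave 42.8% of all CD45+ Ccl22 UMIs, against 19.3% from the 26 mature dendritic cells. A Ccl22 UMI was found in 2.40% of microglia and in 0.710% of T cells, at a like median depth. The 28.3 CPM of B cells rest on 3 cells.

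Ccr7 was highest in mature dendritic cells, at 5938 CPM (5322 to 6606), with a UMI in 84.6% of them. Other dendritic cells stood at 212 (179 to 249.3), B cells at 170 (142 to 201) and T cells at 119 (104 to 136). Over all stages dendritic and B cells overlap and T cells lie below B cells. At the medium stage, the only one with 50 B cells, B cells (156, 128 to 188) and T cells (131, 108 to 156) overlapped, and at the early stage so did dendritic cells (102) and T cells (104). Without the larger medium run 2 library the other dendritic cells stood at 117. These 26 mature cells gave 34.0% of all CD45+ Ccr7 UMIs, and T cells gave 22.4%. All macrophage classes and microglia stood at 11.6 or lower.

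The dendritic values depend on how cells are classed. With each cell classed by its own marker score in place of its cluster, 434 cells were called mature and 517 dendritic. Ccl17 was then lower in the mature class (30.5 CPM) than in the dendritic class (122), the reverse of the order by cluster. Ccl22 stood at 178 and 54.3, and Ccr7 at 359 and 97.0, in the same order as by cluster but with the mature levels over 10 times lower.

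**Figure D3:**
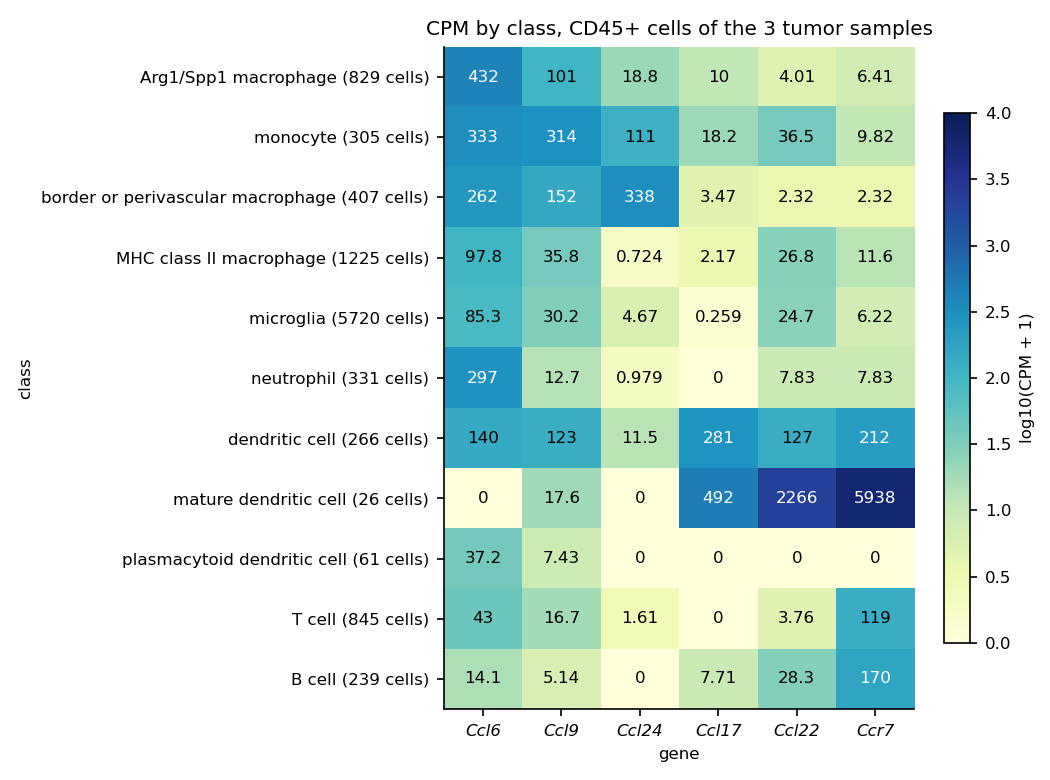
Level of each gene by CD45+ class over all stages, in CPM (numbers in cells) and coloured by log10 of that level plus 1. Ccl6 fills the macrophage, monocyte and neutrophil rows, Ccl24 peaks in border macrophages at 338, and Ccl17, Ccl22 and Ccr7 peak in the 2 dendritic rows.

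Within Arg1/Spp1 macrophages, the pooled Ccl6 level was close between stages, while the class made up a larger share of the cells. Its level was 448 CPM (365 to 544) at the early, 434 (373 to 502) at the medium and 429 (400 to 460) at the late stage, and 32.1%, 32.9% and 33.9% of the cells had a Ccl6 UMI. The pooled intervals overlap at every stage, although libraries of 1 stage differed. Early libraries with 20 cells or more held 518, 91.7 and 549, medium ones 412, 536, 374 and 326, and late ones 838, 457 and 334. The log2 ratio of late over early was -0.07 (-0.36 to 0.25), and -0.47 without 1 of the 2 early run 3 libraries. Over the same stages the class made up 1.65%, 3.74% and 28.5% of CD45+ cells.

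In border macrophages the pooled Ccl6 level differed by stage. It stood at 162 (129 to 201), 299 (231 to 380) and 569 (450 to 710) CPM, in 241, 105 and 61 cells. The 3 pooled intervals do not overlap, but the late libraries do not all lie above the medium ones. The late run 2 library held 745 (530 to 1019) in 23 cells and the late run 3 library 264 (163 to 404) in 36, and 18 of the 78 late UMIs lay in 2 cells of the 91-cell library. The medium libraries with 20 cells or more held 413 (289 to 572) and 153 (69.7 to 289), so the stages overlap by library. A Ccl6 UMI was found in 15.8%, 28.6% and 24.6% of the cells, and these intervals overlap for every pair of stages. The late over early log2 ratio was 1.81 (1.35 to 2.28), and 1.49 to 2.61 with 1 library left out. T cells also stood higher at later stages (12, 39.9 and 131 CPM). The late T cell level rests on 35 UMIs, of which 27 lay in 1 cell with 9658 UMIs in all. The part of free RNA or of mixed droplets in the border macrophage values was not tested.

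In neutrophils Ccl6 stood at 685 CPM (555 to 837) in 51 early and 212 (182 to 246) in 254 medium cells. A finer clustering split the class. Cells led by Clec4d and Hdc, genes of mature neutrophils, held 1107 (880 to 1374) in 37 early and 1122 (891 to 1395) in 42 medium cells. Cells led by Ltf and Lcn2, genes of the granules made in immature neutrophils, held 212 (116 to 356) in 14 early and 124 (99.6 to 152) in 211 medium cells. Within each of these clusters the early and medium intervals overlapped. The Ltf cluster also had 17 late cells at 378 (227 to 590), above its medium interval. The immature cluster held 14 of the 51 early and 211 of the 254 medium neutrophils.

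Ccl24 in border macrophages followed the order of the CD45+ sum. It stood at 344 (295 to 399), 163 (114 to 226) and 598 (476 to 742) CPM. No pooled interval overlaps with another, but libraries of different stages do. Early libraries with 20 cells or more held 278, 383 and 374, medium ones 264 and 102, and late ones 382 and 754. A Ccl24 UMI was found in 23.7%, 11.4% and 23.0% of the cells, and 66 of the 82 late UMIs lay in 5 cells. The log2 ratio of medium over early was -1.06 (-1.64 to -0.55), and -1.77 without 1 of the 2 medium run 2 libraries. For late over early it was 0.80 (0.40 to 1.18), and 0.18 without the late run 3 library. Arg1/Spp1 macrophages had 0 Ccl24 UMIs in 84 early cells, 1 in 149 medium cells and 46 in 13 of 596 late cells.

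Ccl22 in microglia was 24.1 (20.8 to 27.7) early, 53.1 (42.1 to 66.0) medium and 5.23 (2.51 to 9.62) late. The 3 pooled intervals do not overlap, and the late value rests on 10 UMIs, 9 of them in 5 cells. The late over early log2 ratio was -2.13 (-3.28 to -1.29). With 1 library left out it ran from -3.37 (without the late run 2 library) to -1.30. By cluster, microglia led by Tnf, an inflammatory cytokine, and Dusp2 held 50.8 (43.8 to 58.6) over all stages, while the 2 clusters led by P2ry12, a gene of resting microglia, held 10.2 and 8.60. A cluster of 272 cells at 42.1 (27.0 to 62.6) and one of 208 cells at 40.9 (24.2 to 64.6) overlapped with the Tnf cluster, and a heat shock cluster led by Hspa1b held 2.37. The stages differ in these clusters: the Tnf cluster held 1228 of 3954 early, 220 of 811 medium and 164 of 955 late microglia, and the P2ry12 cluster at 8.60 held 796, 48 and 448. In the Tnf cluster the stage values were 45.9 (38.4 to 54.5), 113 (83.4 to 149) and 19.4 (8.40 to 38.3). The late value rests on 8 UMIs in 4 cells. The highest and lowest stages of the class were also the highest and lowest within that cluster. The part of the cluster shares in the class levels was not tested.

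**Figure D4:**
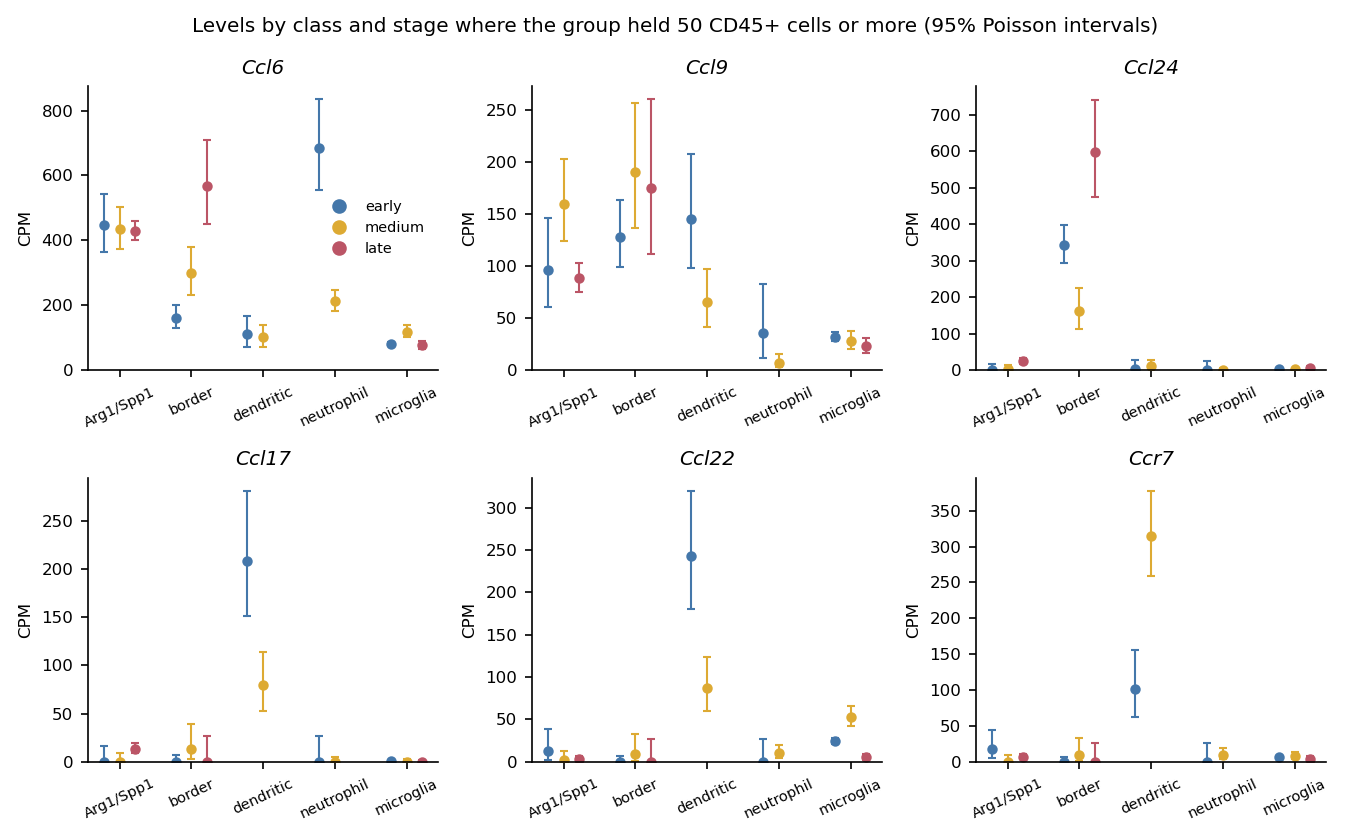
Level of each gene in 5 CD45+ classes by stage (blue early, yellow medium, red late), in CPM with 95% Poisson intervals, for groups of 50 cells or more. Pooled Ccl6 is 448, 434 and 429 in Arg1/Spp1 macrophages, whose libraries run from 91.7 (early) to 838 (late), and 162, 299 and 569 in border macrophages, where the late run 3 library alone held 264.

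The dendritic class was made of 3 clusters beside the mature one. They are called here by their first genes by fold other than the 6 described. With these counted, Ccl17 led the Mgl2 cluster, and Ccr7 led the mature one, with Ccl22 next after Serpinb6b. Cells led by Xcr1 and Itgae (126 cells, markers of cross-presenting dendritic cells) held Ccl17 at 76.0 and Ccr7 at 237 CPM, with no Ccl22 UMI. Of its 75 Ccr7 UMIs 46 lay in 1 medium cell, and the level was 93.2 without that cell. Ccl17 was 43.4 without the larger medium run 2 library. Cells led by Mgl2 and Tnip3, with Cd209a (80 cells, markers of the other conventional subset), held Ccl17 at 720 (611 to 843), Ccl22 at 374 (297 to 465) and Ccr7 at 126 (83.2 to 184). The Ccl17 level was 295 without the late run 2 library, which is below the mature cells, and 5 of the 80 cells held 124 of its 154 UMIs. Cells led by Itgae and Xcr1 with lower Xcr1 (60 cells) held 104, 49.0 and 276. Here 15 of 17 Ccl17 UMIs lay in 1 late run 2 cell and 23 of 45 Ccr7 UMIs in 1 medium cell, and the levels without these cells were 12.5 and 136. The Ccl17 interval of the Mgl2 cluster overlapped with that of mature dendritic cells (492, 327 to 711). The Mgl2 cluster also held Ccl6 at 290 and Ccl9 at 327. Of the 26 mature cells, 24 came from the medium stage and 1 each from the others.

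**Figure D5:**
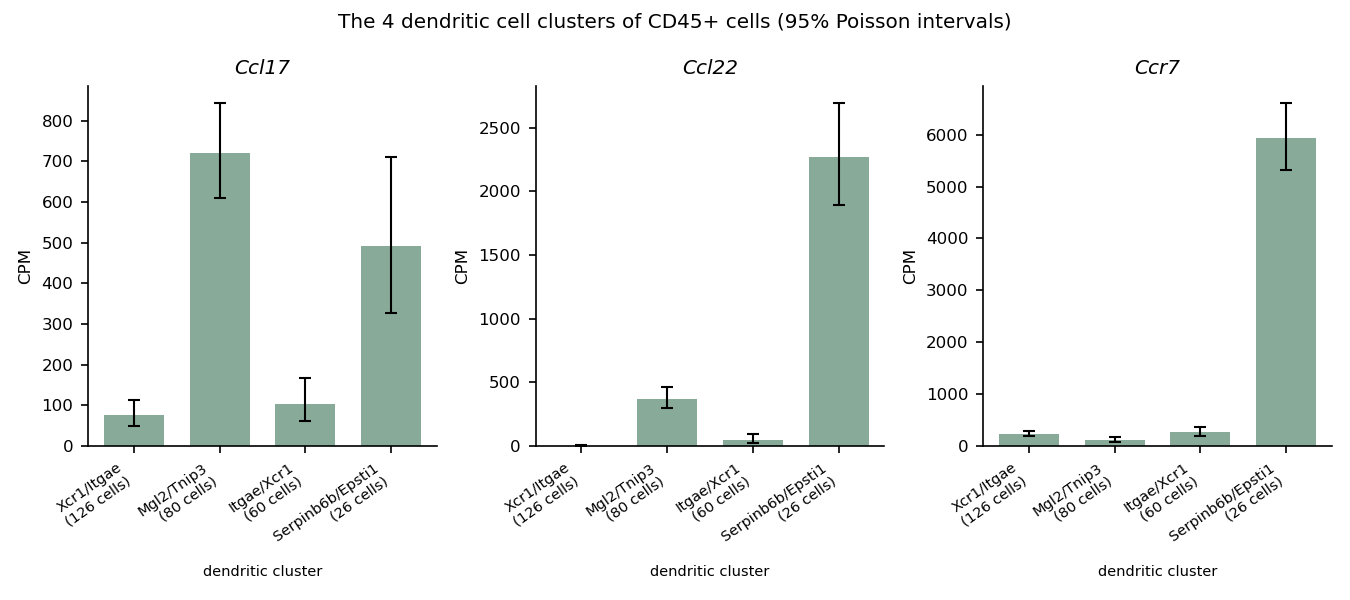
Ccl17, Ccl22 and Ccr7 in the 4 dendritic clusters of CD45+ cells, in CPM with 95% Poisson intervals. Ccl17 is highest in the Mgl2/Tnip3 cluster (720, or 295 without the late run 2 library), and Ccl22 (2266) and Ccr7 (5938) in the mature cluster, which is labelled by its first genes other than the 6 (Serpinb6b and Epsti1).

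Within the dendritic class without the mature cells, 70 early and 150 medium cells were compared, and the 46 late cells are given after them. Ccl17 was 208 (151 to 281) early and 79.3 (53.1 to 114) medium. The share of cells with a Ccl17 UMI was close, at 8.57% and 8.67%, and 25 of the 43 early UMIs lay in 1 cell. Ccl22 was 242 (180 to 320) and 87.5 (59.9 to 124). Ccr7 went the other way, at 102 (63.0 to 156) and 315 (260 to 378). No early CPM interval overlapped with its medium interval. These log2 ratios were -1.39, -1.46 and 1.60, and each depended on single libraries. The Ccl17 ratio was -0.25 without the early run 2 library, Ccl22 -2.92 without 1 medium run 2 library and Ccr7 0.49 without the other. The 46 late cells held Ccl17 at 1016 (844 to 1212), the highest of the 3 stages, with 119 of the 123 UMIs from the late run 2 library. They held Ccl22 at 49.6 (18.2 to 108) and Ccr7 at 90.9 (45.4 to 163). The Mgl2 cluster held 36 of the 70 early and 23 of the 150 medium cells.

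Which of the genes were found in the same dendritic cells? Over the 292 dendritic cells, mature ones included, a Ccl22 UMI was present in 43.8% (21 of 48; 29.5% to 58.8%) of cells with Ccr7 and in 8.61% (5.41% to 12.9%) of those without. Of the 21 cells with both, 6 were left without the mature cells, and the shares were then 23.1% (8.97% to 43.6%) and 7.92% (4.83% to 12.1%), with overlapping intervals. Ccl17 was present in 22.9% and 9.84%. Ccl22 was present in 42.9% (15 of 35) of cells with Ccl17 and in 10.5% of those without, or in 35.7% (18.6% to 55.9%) and 6.30% (3.57% to 10.2%) without the mature cells. At 1000 UMIs drawn from each cell, mature ones included, these shares were 35.7% against 5.24%, 19.0% against 5.65% and 36.4% against 7.46%. By contrast, 6.25% of cells with Ccr7 had a Ccl6 UMI, against 15.6% of those without, with overlapping intervals (1.31% to 17.2% and 11.3% to 20.7%).

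Ccl6 and Ccl9 followed each other across 23 groups of CD45+ cells, made of classes and stages, with a Pearson r of 0.86 on log levels. The groups share libraries and differ in depth, so this is a description. By the same measure the closest genes to Ccl6 were Csf2rb (0.94), a cytokine receptor chain of myeloid cells, Rab32 (0.93) and Arl11 (0.93). The closest to Ccl9 were Vmn2r124 (0.91), Clec4a3 (0.91) and Ms4a6d (0.91). Those to Ccl24 were Fcna (0.85), Fyco1 (0.84) and Lyve1 (0.83), the last a marker used to name border macrophages.

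Ccl17 was closest to Stx3 (0.71), H2-DMb2 (0.69), which helps load MHC class II, and Syngr2 (0.68), and Ccl22 to Gng10 (0.73), Gm20503 (0.73) and Amz1 (0.71). Their r with each other was 0.56. Ccr7 was closest to Klrd1 (0.87), a lymphocyte receptor, Map4k1 (0.85) and Sept6 (0.80). With Ccl6 and Ccl9 the r of Ccr7 was -0.05 and 0.03. None of these values includes the mature dendritic cells, in which Ccl22 and Ccr7 were highest.

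By class, the Ccl6 and Ccl9 receptor Ccr1 was highest in neutrophils at 554 CPM, then border macrophages at 330 and monocytes at 253, with Arg1/Spp1 macrophages at 101.3 and microglia at 86.3. Ccr4 lay in T cells, which held 36 of its 43 UMIs (19.3 CPM). Of 10 CD45+ Ccl19 UMIs, 7 lay in fibroblasts. Ccr1 differed little by stage, with log2 ratios of -0.36 (-0.49 to -0.24) for medium and -0.09 (-0.24 to 0.06) for late over early. Ccr3 had 22, 1 and 5 UMIs and Ccr4 20, 8 and 15 from the early to the late stage.

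By stage, gene lists are given as counts of genes with 10 UMIs or more that were at least 2-fold higher or lower, to be read against the shares over all genes above. Among the 4 receptors, 3 had enough UMIs. Of these, 0 were higher and 2 lower at the medium stage, and 0 higher and 1 lower at the late stage, each against early. Of the Ccr7 ligands, Ccl19 alone had enough UMIs, with 10 at the medium stage and 0 at the early. Of 11 other CC chemokines, 2 were higher and 2 lower at each stage. Of the other receptors, 2 of 6 were higher and 1 lower at the medium stage and 0 of 5 in either direction at the late stage.

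The maturation genes had 6 of 15 higher and 2 lower at the medium stage, and 2 of 14 higher and 1 lower at the late stage. Type 2 cytokine targets had 3 of 8 higher and 0 lower at both. Regulatory T cell genes had 3 of 6 higher at the medium and 4 of 6 at the late stage, with 0 lower. Foxp3 was in neither count, with log2 ratios of 0.09 (-0.23 to 0.41) medium and -0.30 (-0.74 to 0.11) late over early. Ikzf2 (0.61 and 0.32) was in neither as well. The medians of the log2 ratios were 0.35 and -0.15 for the maturation genes, 0.04 and 0.47 for the type 2 targets and 1.17 and 1.14 for the regulatory T cell genes, where all genes had -0.06 and 0.08.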

How the data were processed

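The authors deposited 1 table of UMI counts per gene and cell for the whole series, with a cell annotation. Per the study's methods, inDrop reads were counted with bcbio and RapMap against a GRCm38 transcriptome, and the labels name mm10. The study states removal of ambient RNA and of doublets. Whether this came before deposit is not given in the sources used here. Of 20811 cell columns, 17 were not used: they make up 1 further late CD45+ library. Not every allele of the mice is reported here.

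Cells with at least 500 UMIs and 500 genes and at most 20% mitochondrial UMIs were kept (17877), and Scrublet marked 113 (0.635%) of 17786 tested as doublets, leaving 17764. Cells were clustered with scanpy 1.11.5 and Leiden (leidenalg 0.10.2, resolution 1) and clusters named from marker lists. Of 39 clusters, 34 were named, and 1278 cells stayed unnamed. Counts were summed per tumor sample and sort and tested with edgeR 4.0.16 (quasi-likelihood, TMM, tumor sample as block, Benjamini-Hochberg), with DESeq2 1.42.0 as an alternative. The code was tested on simulated counts. The blocks are the same tumor samples in both sorts. Their deviations from the sort means correlated at 0.36, 0.26 and 0.27. P-values measure the spread between these 3 tumor samples. Levels are UMIs of a gene per 1000000 UMIs of the summed total (CPM). Stage ratios within a class need 50 cells in both stages. Named genes are the 6 members, genes of the lists, and the 3 genes whose pattern over groups correlated best with a member (200 UMIs or more). Members and lists were chosen with earlier results of these data known. Genes named as leading a cluster were the first by fold, the 6 members left out.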

Additional observations from a re-analysis of the deposited data

Results flagged for a closer look

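Among 12 sets of 4 libraries screened for 1 library far from the rest (6 genes at the early and the medium stage), 1 was found. Ccr7 stood at 99.4 CPM in 1 of the 4 medium CD45+ libraries, from run 2, against 55.3, 55.5 and 56.7 in the others, a gap of 0.968 of the whole range. Chance marks about 1 in 20 such sets. Without that library the medium over early log2 ratio of Ccr7 was 1.67, against 2.05 with it.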

How the results depend on the processing

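The sort calls held in direction under every alternative run (edgeR without TMM factors, DESeq2, no replicate block, other filters, doublets kept, shared barcodes left out). Without TMM factors 28.6% of all calls were higher in CD45+ cells, against 44.1% with them. The median log2 fold change of all genes was then -0.41, against -0.05. Dropping the replicate block changed no call for these genes. When genes with as little as 1 count entered the test, Ccl6 kept 5.71 but lost its call. Leaving out 1 tumor sample gave 4.76 to 6.78 for Ccl6.

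For log2 stage ratios, leaving out 1 library gave 1.09 to 1.52 for Ccl6 late, -2.26 to -1.55 for Ccl24 medium, -0.41 to 3.37 for Ccl17 late, -0.14 to 0.68 for Ccl22 medium and -2.34 to -1.02 for Ccl22 late. It gave 1.67 to 2.21 for Ccr7 medium and -0.53 to 0.23 for Ccr7 late. Within class it gave -0.45 to 0.12 and -0.47 to 0.18 for Ccl6 in Arg1/Spp1 macrophages (medium, late), -1.77 to -0.87 and 0.18 to 1.10 for Ccl24 in border macrophages, and -1.74 to -0.25, -2.92 to -1.03 and 0.49 to 1.91 for Ccl17, Ccl22 and Ccr7 in dendritic cells (medium). Within run 1 the medium ratios were -0.68 for Ccl6, -0.39 for Ccl9, -2.85 for Ccl24, -2.12 for Ccl17, -1.52 for Ccl22 and 1.46 for Ccr7. Within run 2 they were -1.07 for Ccl24 and 1.28 for Ccl22, and within run 3 -2.27 for Ccl24, 1.54 for Ccl17 and -0.46 for Ccl22. Late ratios within run 2 were 0.87 for Ccl9, 3.02 for Ccl17 and -0.64 for Ccr7, and within run 3 0.94 for Ccl6, 0.34 for Ccl9, -0.18 for Ccl17, -2.73 for Ccl22 and 0.51 for Ccr7. As means over cells scaled to their own totals, the medium ratios were 0.48 for Ccl6, 1.29 for Ccl17, 0.74 for Ccl22 and 2.36 for Ccr7, and late Ccl6 was 1.00. The causes of these shifts were not tested.

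With each cell classed by its own marker score, Ccl9 in monocytes was 221 CPM, and dendritic cells held Ccl17 at 122, Ccl22 at 54.3 and Ccr7 at 97.0. Mature dendritic cells then held Ccl17 at 30.5, Ccl22 at 178 and Ccr7 at 359, Ccl24 in border macrophages had a late ratio of 0.36 and Ccr7 in dendritic cells a medium ratio of 2.74. At Leiden resolution 2 the dendritic class, which then took in the mature cells, held 327, 315 and 684. With doublets kept, Ccl6 in Arg1/Spp1 macrophages was 464. Leaving out 1 library, a choice made after seeing the data, gave 408 to 482 for it, 296 to 355 for Ccl24 in border macrophages, 123 to 323 for Ccl17 and 117 to 236 for Ccr7 in dendritic cells, and 955 to 2662 for Ccl22 and 5143 to 6719 for Ccr7 in mature dendritic cells. At 1000 UMIs per cell, 19.5% of Arg1/Spp1 macrophages had Ccl6, 21.1% of monocytes Ccl9 and 4.92% of dendritic cells Ccl22, and of dendritic cells without Ccr7 5.24% had Ccl22 and 5.65% Ccl17. Without the mature cells, also chosen after seeing the data, 23.1% of dendritic cells with Ccr7 and 6.30% of those without Ccl17 had Ccl22. Leaving out shared barcodes was also chosen after seeing the data and turned no direction of a stage ratio. Few UMIs limit Ccl17 and late Ccl22, and with 1 tumor sample per stage, stage and animal cannot be told apart.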

Other observations

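Ccl9 was also found outside the leukocytes, in choroid plexus epithelium, the Ttr-rich cells that make cerebrospinal fluid. The 380 such cells of the CD45- sort (median 4814 UMIs) held 73 Ccl9 UMIs, or 32.4 CPM (95% interval 25.4 to 40.7), in 44 cells (11.6%). The other CD45- cells, microglia left out, held 1.44 CPM with a UMI in 0.528% of 5875 cells (median 2662 UMIs). By stage the choroid plexus level was 31.6 (23.4 to 41.8) in 282 early, 22.6 (10.4 to 43.0) in 49 medium and 48.7 (27.2 to 80.3) in 49 late cells, with overlapping intervals. Ccl6 had 1 UMI in these cells, and the other 4 genes had 0. In the choroid plexus cells with a Ccl9 UMI, the leukocyte genes Ptprc, C1qa, Csf1r, Cd74 and Lyz2 stood at 2.88, 5.77, 34.6, 0 and 0 CPM, against 179, 4661, 5034, 4030 and 167 in microglia of the CD45- sort. Csf1r was the highest of them, at 21.7 in all choroid plexus cells. With 341 such microglia at 30.9 CPM of Ccl9, the epithelium and the microglia had like levels of Ccl9 within their intervals (19.8 to 46.0 for microglia).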
